A study of Callorhinchus milii with 12 samples.

Results

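Female and male adult elephant sharks (Callorhinchus milii, a cartilaginous fish) were compared for cytosine methylation outside CG dinucleotides in liver, pancreas and spleen. The comparison rests on 9 of the 12 bisulfite sequencing libraries of the series, namely every low-coverage library whose mapping report covered at least 10000 reads. These were female livers 2, 3 and 4, male livers 3 and 4, and 1 female and 1 male library each of pancreas and spleen, which gives 5 female and 4 male libraries. The smallest report kept covered 19255 reads, and the only one left out, that of male liver 2, covered 230. The remaining libraries were 1 deep-sequenced liver of each sex. The labels call all fish adult. They were by-product of commercial fishing, and age, size and date of capture are not given in the labels. Whether a pancreas, a spleen and a liver of 1 sex came from the same fish is stated neither in the labels nor in the methods.

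In vertebrates, DNA methylation is concentrated at CG dinucleotides, and the enzyme DNMT1 restores the mark on the new strand of dividing cells. Cytosines in CHG and CHH contexts, where H is A, C or T, are not restored in this way in vertebrates, and methylation there depends on the de novo enzymes of the DNMT3 family. In mammals, non-CG methylation is best known from neurons, oocytes and pluripotent stem cells, and is low in most other somatic tissues. Bisulfite turns unmethylated cytosine into uracil, which is read as T, so that a cytosine that escaped conversion is counted as methylated. A non-CG level measured in this way is therefore an upper limit both for true non-CG methylation and for failed conversion, and these sources cannot be told apart in the deposited counts.

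Non-CG methylation, the share of all CHG and CHH calls that were methylated, was lower in the female than in the male libraries of every tissue. Over the tissues, with tissue as block, the female minus male difference was -0.0991 percentage points (5 female and 4 male libraries). The female library was the lower one in 8 of the 8 possible pairs of a female and a male library of the same tissue. Of these pairs, 6 were formed from the same 5 livers, so the pairs are not independent. In the two-sided exact permutation test of this difference, the sexes were exchanged within tissues. Of the 40 possible splits, 2, the observed one included, lay at least as far from 0 as the observed one. The exact permutation test thus gave p = 0.05 (Benjamini-Hochberg adjusted p = 0.125 over the 5 measures tested in this design). The observed split had the lowest value of the 40, and the other split lay slightly farther from 0 in the opposite direction. The smallest p that this design allows is 0.025. The difference thus did not pass a threshold of 0.05. Without either pancreas library, which drops that tissue, it was -0.0542 points (exact permutation test, p = 0.1). With male liver 2 added, whose report holds 4 methylated of 188 non-CG calls, it was -0.395 points (exact permutation test, p = 0.025).

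The female livers had non-CG levels of 0.591% in liver 2, 0.569% in liver 3 and 0.564% in liver 4. The male livers had 0.609% in liver 3 and 0.603% in liver 4. The sexes did not overlap, but the highest female and the lowest male liver, female liver 2 and male liver 4, differed by only -0.0125 points. The means were 0.574% ± 0.0145 (SD, n = 3) in females and 0.606% ± 0.00361 (SD, n = 2) in males. Their difference of -0.0316 points was 2.62 times the SD of livers within a sex, 0.0121 points (two-sided exact permutation test, p = 0.2, where 3 against 2 libraries cannot give a p under 0.1). That SD lay below the mean counting error of a single liver, 0.0166 points, so the ratio may overstate the separation. The 95% Wilson intervals of single livers overlapped between the sexes, from 0.557% to 0.627% in female liver 2 and from 0.569% to 0.640% in male liver 4. With the calls of each sex added, 3973 of 694352 non-CG calls were methylated in the female and 2590 of 427081 in the male livers. The difference of these shares was -0.0343 points with a 95% Newcombe interval of -0.0637 to -0.00516. These intervals cover counting error only and take calls as independent.

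Among livers of 1 sex, no spread in non-CG methylation beyond the counting of calls was detected. The chi-square statistic for unequal levels, divided by its degrees of freedom, averages 1 when libraries differ by counting error alone. For non-CG calls it was 0.817 among the 3 female livers and 0.0450 between the 2 male livers. With 2 and 1 degrees of freedom the statistic scatters widely, so these values cannot exclude some further spread between livers. Over all 5 livers, both sexes together, it was 1.74. For CG calls it was 37.5 among the female livers, far beyond counting error, and 0.0178 between the male livers.

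The pancreas had the widest gap between the sexes. In the female pancreas 1527 of 187572 non-CG calls were methylated, a level of 0.814% (95% Wilson interval 0.774% to 0.856%). In the male pancreas 1983 of 186106 were methylated, a level of 1.07% (1.02% to 1.11%). The female minus male difference was thus -0.251 points (95% Newcombe interval -0.313 to -0.190), and the male level was 1.31 times the female (95% interval 1.22 to 1.40). The male pancreas had the highest level of the 9 libraries.

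In the spleen the female library had 2359 methylated of 335945 non-CG calls, a level of 0.702% (95% Wilson interval 0.675% to 0.731%). The male library had 4144 of 511145, a level of 0.811% (0.787% to 0.836%). The difference was -0.109 points (95% Newcombe interval -0.146 to -0.0709), with a male level 1.15 times the female. With 1 library per sex, neither the pancreas nor the spleen difference has a replicate check. Both were larger than the whole range of the 5 livers, 0.0448 points, but that range was measured in another tissue. Within pancreas and spleen alone, with tissue as block, the mean difference was -0.180 points (two-sided exact permutation test, p = 0.5, the smallest that 4 splits allow).

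**Figure D1:**
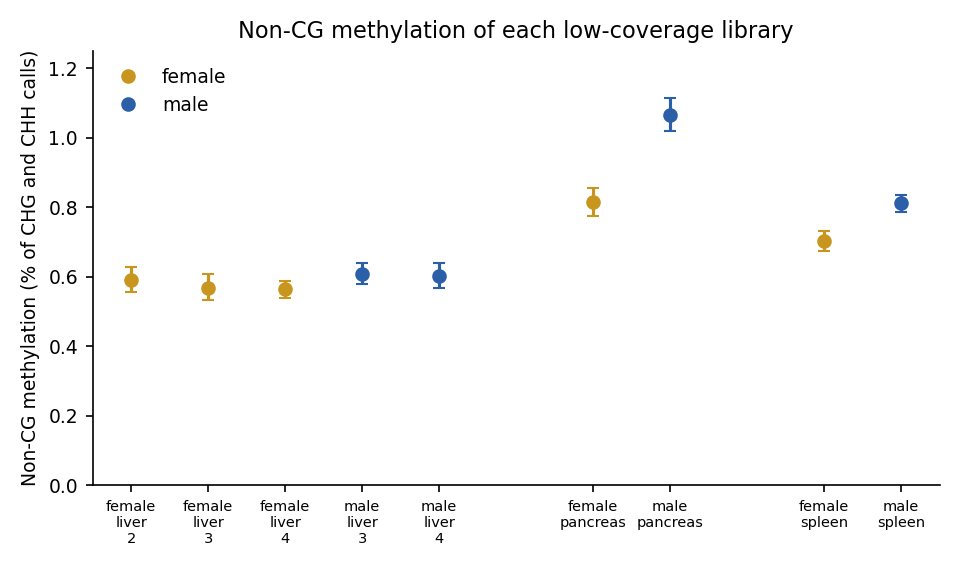
Non-CG methylation (vertical axis, % of CHG and CHH calls) of the 9 low-coverage libraries, with females in gold and males in blue; bars are 95% Wilson intervals and cover counting error only. The 5 livers lie between 0.564% and 0.609%, and the male is the higher library in both pancreas and spleen.

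Ordered by level, the 5 livers came first, then the female spleen, the male spleen, the female pancreas and the male pancreas. The male spleen and the female pancreas, at 0.811% and 0.814%, could not be told apart within their intervals. Within each sex the pancreas was above the spleen, by 0.112 points in the female and 0.255 points in the male. The lowest level outside liver was 0.0936 points above the highest liver. The report headers place the pancreas and spleen reads in a folder named as a sequencing run, which the liver headers lack. The difference between liver and the other tissues thus cannot be told apart from a difference in folder, or from run if the folders mark runs. The comparison of the sexes within each tissue does not cross these folders. As the liver headers name no run, whether female and male livers were sequenced together is not known.

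The sex difference in pancreas and spleen exceeded that in liver by -0.148 points, taken as the mean of the pancreas and spleen differences minus the liver difference. In a two-sided exact permutation test of this contrast, p was 0.475 over 40 splits. The contrast was -0.0769 points without the pancreas, -0.220 points without the spleen, and 0.359 points with male liver 2 added. A different size of the sex difference among tissues was therefore neither shown nor excluded.

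The sex difference was next examined separately for the CHG and CHH contexts. CHH methylation, which makes up most non-CG calls, was lower in the female library of all 8 within-tissue pairs. The CHH difference over tissues was -0.105 points, with p = 0.05 in the two-sided exact permutation test and an adjusted p of 0.125. CHG methylation was lower in the female in 5 of the 8 pairs, and its difference over tissues of -0.0818 points had p = 0.275 in the exact permutation test (adjusted p = 0.458).

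In liver, CHH levels were 0.549%, 0.516% and 0.525% in female livers 2, 3 and 4, and 0.582% and 0.564% in male livers 3 and 4. All female livers were below both male livers, and the difference of means was -0.0434 points (two-sided exact permutation test, p = 0.2). CHG levels were 0.705%, 0.715% and 0.675% in the female and 0.683% and 0.713% in the male livers. Here the sexes overlapped, the female was the lower in 3 of the 6 liver pairs, and the difference of means was 0.000267 points (two-sided exact permutation test, p = 1). With the CHG calls of each sex added, the liver difference was instead -0.00331 points. Its 95% Newcombe interval of -0.0658 to 0.0578 points also includes the CHH difference. A difference between the contexts was not tested.

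In pancreas and spleen the female library was lower in both contexts. In pancreas, female and male CHG levels were 0.939% and 1.15%, a difference of -0.212 points (95% Newcombe interval -0.341 to -0.0837). Pancreas CHH was 0.771% and 1.04%, a difference of -0.264 points (-0.335 to -0.194). Spleen CHG was 0.779% and 0.928%, a difference of -0.148 points (-0.227 to -0.0685). Spleen CHH was 0.676% and 0.771%, a difference of -0.0941 points (-0.136 to -0.0515). CHG exceeded CHH in 9 of the 9 libraries. The ratio of CHG to CHH lay between 1.28 and 1.39 in female livers and between 1.17 and 1.26 in male livers. It was also higher in the female pancreas, at 1.22 against 1.11, whereas in the spleen it was lower in the female, at 1.15 against 1.20. These ratios have no intervals and their sex differences were not tested. In single livers the mean counting error was 0.0351 points for CHG and 0.0187 points for CHH.

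**Figure D2:**
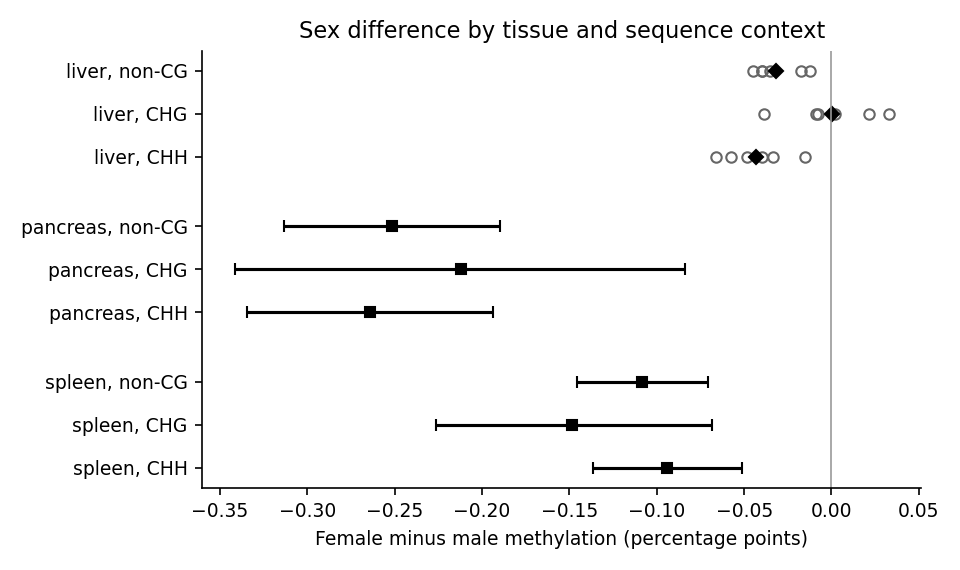
Female minus male methylation (horizontal axis, percentage points) for all non-CG, CHG and CHH calls in each tissue. For liver, open circles are the 6 pairs of a female and a male library and the diamond is the difference of means; for pancreas and spleen, squares are the single difference with its 95% Newcombe interval, and only the liver CHG values fall on both sides of 0.

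The number of methylated non-CG calls per read was lower in the female libraries of each tissue. It takes the same methylated calls over reads in place of calls, so it is not separate support. Per 1000 uniquely aligned reads there were 118 methylated non-CG calls in female liver 2, 108 in female liver 3 and 111 in female liver 4. The corresponding values were 121 in male liver 3 and 124 in male liver 4. The pancreas had 200 in the female and 247 in the male, and the spleen 172 and 191. Non-CG calls made up 6.47% to 7.22% of all methylated calls in the livers. In pancreas and spleen this share was 8.78% to 11.4%.

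CG methylation of the same libraries did not order the sexes in this way. It was 67.5%, 63.5% and 65.8% in female livers 2, 3 and 4, and 66.9% and 66.8% in male livers 3 and 4, so that the female livers lay on both sides of the male ones. In pancreas the female was the lower, at 66.4% against 67.8%. In spleen the female was the higher, at 66.7% against 63.9%. Over tissues the CG difference was -0.359 points (two-sided exact permutation test with tissue as block, p = 0.775, adjusted p = 0.775). Its direction rests on female liver 3, without which it was 0.252 points (exact permutation test, p = 0.833). The male spleen had a higher non-CG but a lower CG level than the female spleen, and female liver 3, with the lowest CG level of the livers, lay within the narrow non-CG range of its sex.

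**Figure D3:**
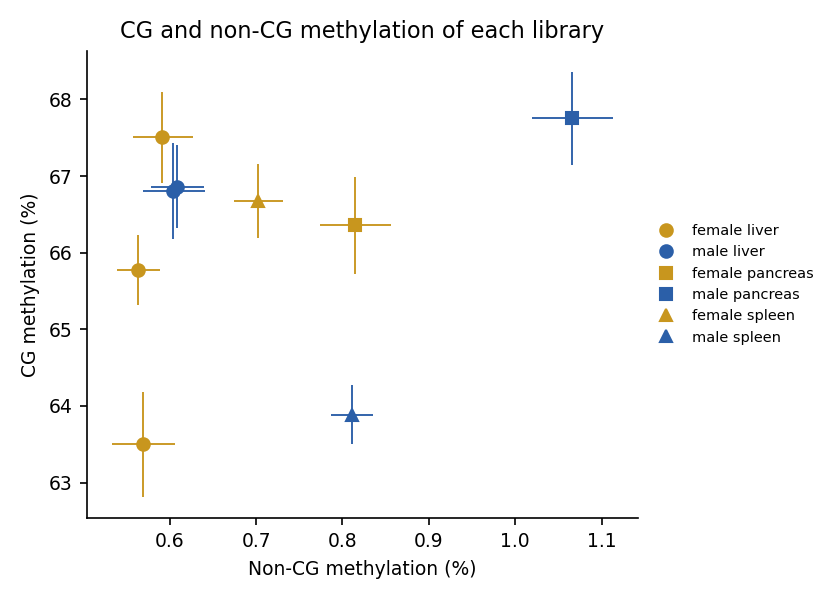
CG methylation (vertical axis, %) against non-CG methylation (horizontal axis, %) of the 9 libraries, by tissue (symbol) and sex (colour), with 95% Wilson intervals on both axes. The livers span 63.5% to 67.5% on the CG axis but only 0.564% to 0.609% on the non-CG axis.

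If the whole non-CG level is taken as failed conversion, each CG level can be corrected for it. The correction lowered CG methylation by 0.193 to 0.209 points in the livers. It lowered the female and male pancreas by 0.276 and 0.347 points, and the female and male spleen by 0.236 and 0.295 points. The CG difference over tissues became -0.327 points (two-sided exact permutation test, p = 0.775). In pancreas the corrected difference was -1.33 in place of -1.40 points, and in spleen 2.85 in place of 2.79 points.

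Technical measures of the libraries also differed between the sexes in places. The share of reads that aligned uniquely was 24.2%, 26.3% and 27.3% in female livers 2, 3 and 4, and 26.6% and 26.2% in male livers 3 and 4, so the sexes overlapped. It was higher in the female in pancreas, at 39.7% against 37.9%, and in spleen, at 42.0% against 39.1%. Over tissues this difference was 0.813 points, with p = 0.45 in the two-sided exact permutation test and an adjusted p of 0.562. The share of reads with several equally good alignments was 6.63% to 7.17% in female livers and 5.96% to 6.34% in male livers, without overlap. In pancreas and spleen it was the reverse, with 2.49% in the female and 3.30% in the male pancreas, and 2.22% and 2.79% in the spleen. In pancreas and spleen, lower unique alignment and more ambiguous reads thus went with the male library and its higher non-CG level. Their part in the result was not tested. Aligned reads were divided evenly between the strands, with 49.2% to 50.8% from the top strand in each of the 9 libraries.

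The deep-sequenced livers were set beside these libraries as far as their files allow. Those files hold CG calls only, 30080951 in the female and 38128530 in the male, and the non-CG levels of these livers were not analysed here. The nearest quantity in them is the residual CG methylation of stretches that are almost free of methylation, which, like a non-CG level, includes failed conversion. Windows of 2 kb were chosen on the reads of both livers with an even last coordinate in the read name, with at least 50 CG calls and under 5% methylation, and their level was measured on the other reads of each liver. In these 4512 windows, 7522 of 377086 calls were methylated in the female, a level of 1.99% (95% Wilson interval 1.95% to 2.04%). In the male, 10316 of 466173 were methylated, a level of 2.21% (2.17% to 2.26%). The difference was -0.218 points (95% Newcombe interval -0.279 to -0.157, counting error only), with the female again the lower. With windows chosen at under 2%, the female and male levels were 1.33% and 1.57%.

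The lower level in the deep-sequenced female liver was not limited to these windows. Over all its CG calls the level was 69.0%, against 71.6% in the deep-sequenced male liver. When all windows were grouped by their level in the choosing reads, the female was the lower in 12 of 12 groups. These groups are parts of the same 2 libraries and not separate results. The difference was -0.177 points in windows of 2% to 5%, reached -3.48 points in windows of 50% to 60%, and was -1.04 points in windows of 90% and above. The windows therefore do not separate residual from true CG methylation, and with 1 deep library per sex the differences describe 2 fish and were not tested.

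**Figure D4:**
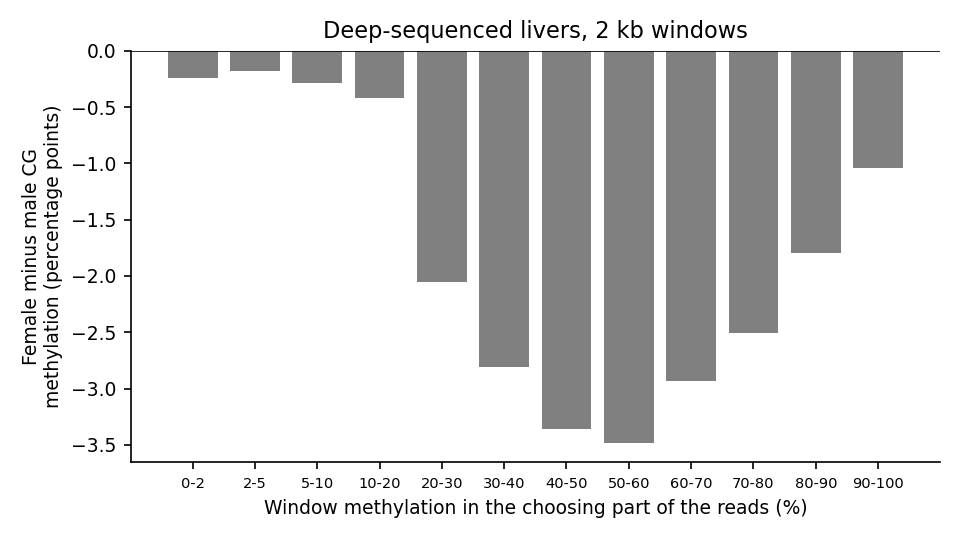
Female minus male CG methylation (vertical axis, percentage points) of the deep-sequenced livers in 2 kb windows, grouped by their methylation (horizontal axis, %) in the part of the reads used to choose them and measured on the other reads. Bars are single values with 1 library per sex; the female is lower in all 12 groups, least at 2% to 5% and most at 50% to 60%.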

How the data were processed

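Libraries were made by post-bisulfite adapter tagging (PBAT). Per the labels and methods, the authors trimmed reads with Trim Galore (v0.4.0), removed 10 bp from the 5′ end and aligned with Bismark (v0.14.3). The deposited mapping reports of the low-coverage libraries give counts of reads and of methylated and unmethylated calls per context, with duplicates kept. The study's supplementary table lists other non-CG totals for these libraries, for a reason not given in the sources used here, and the deposited reports were used throughout. The 9 libraries held 19255 to 64619 reads, 7637 to 21738 of them aligned, and 160051 to 511145 non-CG calls. For the deep-sequenced livers the authors deposited single CG calls after removal of duplicates.

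Sex and tissue came from the labels. Levels were recomputed from the counts, with 1 percentage per library, in Python 3.11.15 with NumPy 2.4.6, pandas 2.3.3 and Matplotlib 3.10.9. The sex difference is the least squares coefficient with tissue means removed, so that liver weighs most. Permutation tests enumerated all exchanges of the sexes within tissues and compared absolute values. P-values come from exchanging these libraries, taken as independent. In pancreas and spleen, 1 library per sex gives no spread within a sex. Libraries of 1 sex may also share a fish, so the p-values do not measure the spread between independent fish. The permutation test over tissues, with tissue as block, was tried on simulated libraries. The choice of windows was tried on simulated calls in which the low windows held no true methylation. The other tests were not simulated. The libraries, measures and tests were chosen with earlier results of these data known. No genes were named. Alternatives were single contexts, log odds, other weights, no block, pairing by number, each library left out, male liver 2 added, and other window limits.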

Additional observations from a re-analysis of the deposited data

Results flagged for a closer look

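Male liver 2, left out of the comparison, lay far from the 5 livers used. Its report holds 4 methylated and 188 non-CG calls in all, a level of 2.13% (95% Wilson interval 0.830% to 5.34%), and its CHG and CHH levels were 4.65% (1.28% to 15.5%) and 1.38% (0.379% to 4.89%). The CHH interval includes the levels of the other 5 livers. Of its 230 reads 5.65% aligned uniquely and 0.435% aligned equally well to several places. Of 12 checks for a library far from the rest of the livers, 6 of them without male liver 2, these 5 stood out. Chance marks about 1 in 20 where libraries are alike in depth, which male liver 2 is not. The measures are not independent.

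The difference between the sexes in CG methylation had opposite directions in pancreas, at -1.40 points, and spleen, at 2.79 points. This contrast was not tested.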

How the results depend on the processing

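Of 77 alternative values, 72 kept the direction of the reported result and its side of the threshold or, for differences without a test, stayed within its 95% interval. In many settings the side could not change, because too few splits were possible. The 5 livers, for example, allow no p under 0.1. The tally also ignores size. Adding male liver 2 moved the liver difference from -0.0316 to -0.539 points, CG from -0.359 to -1.88 and mapping from 0.813 to 4.81, and these count as kept. With male liver 2 added as deposited, the non-CG difference over tissues was -0.395 points and p was 0.025 in the exact permutation test, and the contrast of pancreas and spleen with liver turned to 0.359 points. Both rest on the 4 methylated non-CG calls of that report, which falls short of the depth given in the methods. Liver CHG calls alone turned the liver difference of means to 0.000267 points, whereas pooled liver CHG calls gave -0.00331 points. Spleen CHG calls alone moved the spleen difference to -0.148 points. The cause was not tested.

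Leaving out each library in turn, the non-CG difference over tissues lay between -0.117 and -0.0542 points (exact permutation p from 0.0625 to 0.1), and its lowest size, without either pancreas library, drops that tissue. Over the same settings the liver difference lay between -0.0399 and -0.0262 points, the contrast of tissues between -0.220 and -0.0769, the CG difference between -1.28 and 0.252, and the mapping difference between 0.211 and 1.37. The highest CG value is the one without female liver 3.

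Livers 3 and 4 of both sexes share only a number. Liver 3 was above liver 4 by 0.00482 points in females and 0.00511 in males. With these livers paired as a replicate block, the non-CG difference over tissues was -0.110 points (exact permutation test, p = 0.125, the smallest it allows), that in liver -0.0399 points, that of CG -0.749 points and that of mapping 1.37 points. Each of these differences kept its direction with the block. The block allows too few splits for a p under the threshold, so its p-values are no check of the result. Without the tissue block the non-CG difference was -0.124 points (exact permutation test, p = 0.27). With 9 libraries, differences of a few hundredths of a point are near the counting error of single livers.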
